A study of Homo sapiens with 12 samples.

Results

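RBE cells, an established human line from a cholangiocarcinoma (a cancer of the bile ducts), were given Nutlin after a long treatment with AG-120, and their poly(A) RNA was sequenced. The comparison holds 6 of the 12 libraries of the series. The 3 libraries named AG120_Nutlin come from cells kept for 22 days in 5 µM AG-120 and then exposed for 72 hours to 5 µM Nutlin. The 3 libraries named AG120 come from cells with the same AG-120 treatment and, per the sample titles, DMSO instead of Nutlin, so AG-120 is common to both groups and Nutlin is the difference. The other 6 libraries, named vehicle and vehicle_Nutlin, had DMSO in place of AG-120. They share the estimate of spread here and are compared in a later paragraph. Genes were not selected: of 55773 entries in the deposited table, 29603 had a count in any library and 15691 had enough counts to be tested. The series asks how 2-hydroxyglutarate (2-HG), which AG-120 stops the cells from making, alters the expression that p53 coordinates. All libraries come from 1 cell line, the counts hold no measure of 2-HG, and the labels do not say whether the replicates were separate cultures. The p-values therefore measure the spread between these samples, which may be technical.

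p53 is a transcription factor that MDM2, a ubiquitin ligase, keeps scarce. Nutlin occupies the pocket of MDM2 that holds p53, so p53 builds up and switches on genes for cell cycle arrest, death, DNA repair and metabolism, along with MDM2 itself. One of its targets, CDKN1A, encodes p21, which blocks the cyclin-dependent kinases. RB-family proteins then stay on E2F factors, and the DREAM complex settles on promoters with E2F or CHR elements and holds genes of DNA replication and mitosis down. Mutations of IDH1 recur in cholangiocarcinoma. The mutant enzyme turns 2-oxoglutarate into 2-HG, and AG-120 (ivosidenib) inhibits it.

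The promoters of 8 genes are shown because they carry the elements through which p53 and DREAM are known to act. Each sequence is the 120 bases before the start of the gene, 5′ to 3′ on the strand of the gene, from RefSeq on GRCh38.p14. Gene positions elsewhere in the text are on hg19, the build of the counts. KIF11 (chr10:92593010-92593129, plus strand), KIF20A (chr5:138178992-138179111, plus strand), PRC1 (chr15:90994536-90994655, minus strand) and HMMR (chr5:163460512-163460631, plus strand) encode mitotic proteins. In these 4, capitals mark CHR elements (TTTGAA or TTTAAA) and CCAAT boxes, on either strand. MCM6 (chr2:135876444-135876563, minus strand) and MCM7 (chr7:100101398-100101517, minus strand) encode subunits of the replicative helicase, and capitals mark E2F elements (TTTCCCGC, TTTGGCGC, TTTGCCGC or TTTCGCGC, on either strand, overlapping in MCM6). CCAAT boxes of these 2 are left in lower case. MR1 (chr1:181033267-181033386, plus strand) and BLNK (chr10:96271570-96271689, minus strand) are p53 targets, and capitals mark a stretch like the p53 response element, its 2 half-sites with the spacer between them. The search allowed 1 mismatch over both half-sites, outside their core C and G, and a spacer of up to 13 bases, so these stretches are not exact matches. Such a stretch was found in 2 of the 101 matched promoters of the p53 target lists, MR1 and BLNK, so these 2 are not typical of those lists. MCM6 and MCM7 were chosen after their values were seen. The others were picked by rank of their p-values in this response, among list members whose printed stretch holds the elements. No promoter shown was therefore chosen blind to the values.
KIF11: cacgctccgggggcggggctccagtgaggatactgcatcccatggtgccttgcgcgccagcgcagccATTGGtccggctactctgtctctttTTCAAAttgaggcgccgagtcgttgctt
KIF20A: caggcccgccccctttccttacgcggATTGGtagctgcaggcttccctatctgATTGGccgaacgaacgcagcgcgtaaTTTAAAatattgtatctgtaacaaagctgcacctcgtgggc
PRC1: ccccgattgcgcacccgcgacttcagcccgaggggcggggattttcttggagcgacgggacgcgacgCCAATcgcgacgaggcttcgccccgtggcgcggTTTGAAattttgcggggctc
HMMR: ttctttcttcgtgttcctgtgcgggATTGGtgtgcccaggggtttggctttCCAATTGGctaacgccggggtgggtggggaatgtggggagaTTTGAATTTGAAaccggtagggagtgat
MCM6: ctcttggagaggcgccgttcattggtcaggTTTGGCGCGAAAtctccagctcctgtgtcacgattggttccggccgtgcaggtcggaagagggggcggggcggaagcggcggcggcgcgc
MCM7: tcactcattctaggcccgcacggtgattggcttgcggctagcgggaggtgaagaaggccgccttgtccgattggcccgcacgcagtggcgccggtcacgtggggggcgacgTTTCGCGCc
MR1: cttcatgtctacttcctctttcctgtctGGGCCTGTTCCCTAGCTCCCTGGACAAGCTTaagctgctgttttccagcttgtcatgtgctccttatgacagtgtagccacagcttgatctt
BLNK: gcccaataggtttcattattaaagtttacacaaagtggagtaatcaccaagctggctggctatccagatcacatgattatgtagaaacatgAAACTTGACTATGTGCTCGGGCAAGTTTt
The CHR element began 28 bases before the gene start in KIF11, 41 in KIF20A and 20 in PRC1. HMMR held a tandem pair that began at 28 and 22 bases before the start. A match is a description of letters and not a measured binding site.

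Library totals of the 6 samples ran from 16840161 to 24263971 counts. The first principal component held 88.54% of their variance and parted AG120 from AG120_Nutlin, and the next, with 5.01%, set AG120 replicate 1 apart. The 3 AG120_Nutlin libraries lay close together: the SD per gene (log2) had a median of 0.0924 there and of 0.183 in AG120. Untailed RNAs, which poly(A) selection should remove, were raised in some libraries of both groups: RN7SK was at 68, 19.4 and 1.11 CPM in AG120 and 2.59, 3.99 and 27.7 CPM in AG120_Nutlin. The correlation across genes (Spearman) between transcript length and a library's deviation from its group was 0.397, -0.227 and -0.377 in AG120 and between -0.079 and 0.057 in AG120_Nutlin. The log2 fold changes themselves had a correlation of -0.004 with length. Of 1227 list members and named genes checked, 1190 stayed called higher, called lower or not called when transcript length offsets were fitted. With these offsets 8 lost a call and 29 gained one. When AG120 replicate 1 was left out, 1163 stayed as they were, 40 lost a call and 24 gained one. Whether carry-over of untailed RNAs contributed to single results was not tested.

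The targeted pathway responded in every library. MDM2 (chromosome 12, 69201956 to 69239214), the protein that Nutlin blocks and itself a p53 target, stood at 194, 148 and 148 CPM in AG120 and 3349.9, 3324 and 3354 CPM in AG120_Nutlin. CDKN1A (chromosome 6, 36644305 to 36655116) stood at 380.1, 469 and 489 CPM in AG120 and 10074, 10405 and 10201 CPM in AG120_Nutlin. The groups did not overlap for either gene. MDM2 rose 20.5-fold (log2 4.36, SE 0.19, adjusted p = 7.97e-10, edgeR quasi-likelihood test) and CDKN1A 22.9-fold (log2 4.52, SE 0.14, adjusted p = 4.8e-11). IDH1 (chromosome 2, 209100951 to 209130798), the enzyme that AG-120 targets in its mutant form, fell by 0.94 on the log2 scale (SE 0.11), from 185, 199.7 and 202 to 104, 101 and 100.2 CPM.

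Biliary identity was checked with 9 markers. KRT19, a keratin of bile duct cells, stood at 2205, 1770.4 and 1716 CPM in AG120 and 1962, 1968 and 2040.2 CPM in AG120_Nutlin, so the groups overlapped. KRT7, its partner in ducts, fell 3.57-fold (from 1719 ± 210.1 to 482 ± 10.0 CPM, mean ± SD, n = 3), EPCAM, a surface protein of epithelia, fell 3.54-fold and the mucin MUC1 fell 7.45-fold. SPP1 (osteopontin) rose by 1.28 (log2). CFTR and TFF2 were too low to be tested. Many markers of other cell types were near the floor: the hepatocyte genes ALB, APOA1, APOB, CYP3A4 and TF, the fibroblast genes COL3A1, DCN and LUM, and the leukocyte genes PTPRC, CD3E and CD68 were not tested. The summed counts were 8 to 12 for 4 endothelial genes and 62 to 81 for 6 leukocyte genes in AG120 libraries, and 9 to 18 and 31 to 56 in AG120_Nutlin libraries. The 8 fibroblast genes summed to 1109 to 1264 and 754 to 975 counts, nearly all from COL1A1, PDGFRB, PDGFRA and ACTA2. The 10 hepatocyte genes summed to 3477 to 4736 and 5373 to 6764 counts, most of them from SERPINA1, a protease inhibitor that rose 2.02-fold. Of the 5 tested hepatocyte genes 3 fell, HNF4A 3.5-fold, CPS1 2.43-fold and FGB 7.0-fold, and 2 rose, SERPINA1 and TTR (4 to 45 counts in all). Since these are bulk samples, fewer cells of a kind and less RNA per cell cannot be told apart.

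Across the 15691 tested genes, 4234 were higher (27%) and 4513 lower (28.8%) in AG120_Nutlin at an adjusted p of at most 0.05. Of these, 2028 rose (12.9%) and 2392 fell (15.2%) at least 2-fold, and 409 rose (2.61%) and 484 fell (3.08%) at least 8-fold. The median log2 fold change, which the TMM scaling holds near 0, was 0.00, and 69.3% of genes lay within 2-fold. Libraries of the groups did not overlap for 70.2% of tested genes. Counts of list members below are read against these shares, and lists such as caspases, cargo kinesins and secreted factors lay near them in both directions. The lists, those of p53 targets included, were written with earlier results of these data known, so their shares may partly reflect that choice. By type, 28.5% of 12952 protein-coding genes were higher and 30.8% lower, while 605 antisense transcripts were 25.8% higher and 14% lower. The use of strand in counting is not given in the sources used here, so reads of antisense transcripts and of the genes they overlap cannot be told apart.

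**Figure D1:**
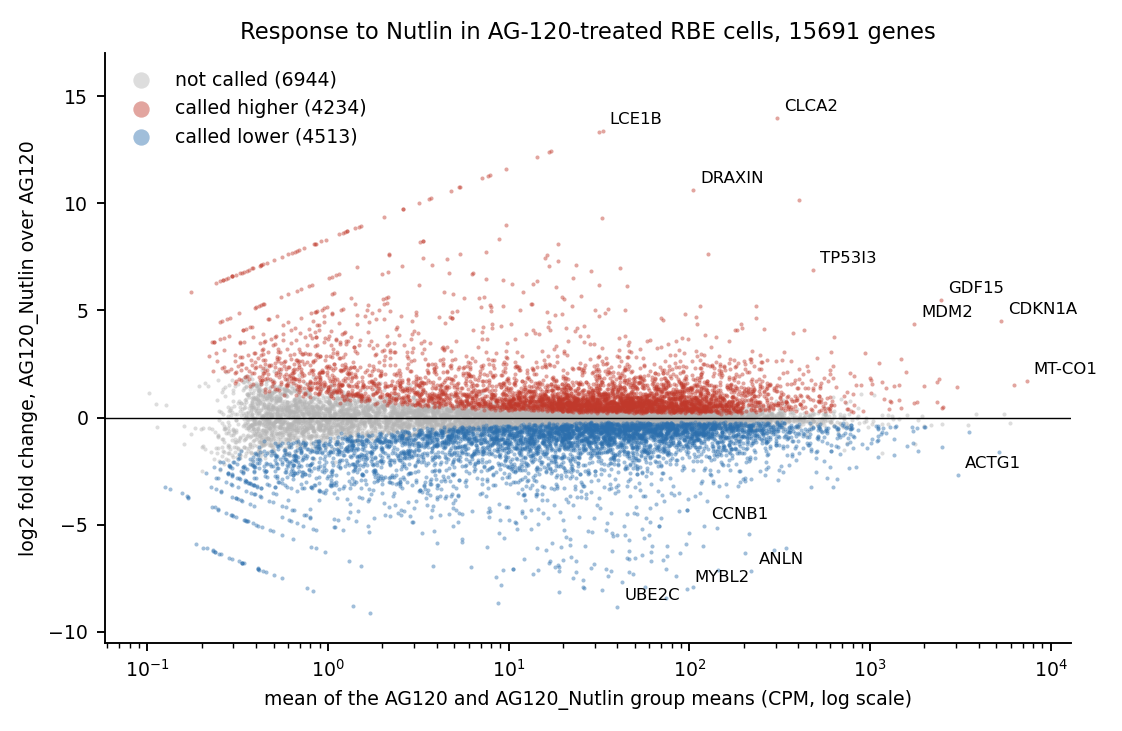
Each point is 1 of 15691 tested genes. The x axis is the mean of both group means in CPM on a log scale, and the y axis is the log2 fold change of AG120_Nutlin over AG120. Called genes are red (4234 higher) or blue (4513 lower) and the others grey. The straight rows of red points at the upper left are genes at or near 0 counts in AG120, whose height depends on the fit and is not a measured fold.

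The regulators that surround p53 split. PPM1D, a phosphatase that switches the p53 pathway off and is itself a target, rose 6.26-fold, from 22.7, 25.7 and 25.2 to 151, 153 and 156 CPM. MDM4, the relative of MDM2 that holds p53 inactive, rose by 2.15 on the log2 scale, from 15.3, 10.8 and 13.7 to 62.2, 62.5 and 51.6 CPM. TP73, a p53 relative driven by E2F1, was the largest fall in the list at -5.39 (log2, SE 0.27), from 21.6, 15.9 and 14.7 to 0.422, 0.444 and 0.353 CPM. The ubiquitin ligase SIAH1 and the cyclin CCNG1 were at 0.16 and 0.08 and did not pass the test. In all 4 of 10 measured members rose and 2 fell.

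Targets that act in arrest and growth signalling were mostly higher: 14 of 16 rose and 1 fell, with a median log2 fold change of 2.42. BTG2, an antiproliferative protein, stood at 23.9, 31 and 30.1 CPM without Nutlin and 493, 492 and 488 CPM with it, which is 17.4-fold with no overlap. GADD45A, a stress sensor that binds PCNA and p21, rose 17.1-fold (from 19.9 ± 8.01 to 339 ± 8.71 CPM). The sestrins SESN1 and SESN2, which restrain mTORC1, rose by 3.29 and 2.44 (log2). ZMAT3, an RNA-binding target of p53, rose by 2.62, the kinase PLK3 by 2.94, PHLDA3, an inhibitor of AKT, by 2.39, and SFN (14-3-3 sigma), which holds mitotic kinases in the cytoplasm, by 1.96. PLK2 was the exception and fell by 0.54 (SE 0.10).

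Among targets that act in cell death, 19 of 22 rose and 2 fell (median 1.62). TP53I3, an oxidoreductase linked to oxidative death, stood at 7.54, 8.39 and 8.6 CPM in AG120 and 968, 979 and 938 CPM in AG120_Nutlin, a rise of 118-fold. EDA2R, a receptor of the TNF family, went from 0.214, 0.245 and 0.211 to 10.5, 10.8 and 12.1 CPM. FAS, the receptor for FAS ligand, rose 7.3-fold, from 29.1, 39.1 and 37.9 to 269.9, 244 and 260.4 CPM. Each of these 3 genes was higher in all AG120_Nutlin libraries than in any AG120 library. The TRAIL receptors did not share a direction: TNFRSF10B and TNFRSF10A, which signal death, rose by 1.78 and 1.24, the decoy TNFRSF10D rose by 2.40, and the decoy TNFRSF10C fell by 1.52. BBC3 (PUMA) rose 7.69-fold (from 27.7 ± 5.95 to 213 ± 12.2 CPM), PMAIP1 (NOXA) 3.1-fold and BAX 2.84-fold (from 144 ± 37.3 to 408 ± 12.3 CPM). APAF1, the core of the apoptosome, rose by 1.17, and BID, which links death receptors to mitochondria, fell by 0.72.

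The BCL2 family was examined on both sides. Of 10 measured pro-death members 6 rose and 2 fell: besides BBC3, PMAIP1 and BAX these were BCL2L11 (BIM, 1.75), BAK1 (1.80) and BMF (0.37) up, and BOK (-1.28) and BID down. Of 4 pro-survival members, BCL2L1 (BCL-XL) rose by 0.76, BCL2L2 (BCL-W) rose by 1.09, BCL2 fell by 1.35, and MCL1 was at -0.16 and did not pass. BCL2 itself was low, from 7.95 ± 0.38 to 3.12 ± 0.405 CPM. Caspases and their inhibitors counted 6 of 17 up and 6 down. CASP10, an initiator caspase, rose 6.23-fold. BIRC5 (survivin), which also serves in mitosis, fell 126-fold, BIRC3 fell by 1.19 (log2) and CASP8 was at 0.09 with overlapping groups.

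DNA repair targets of p53 counted 8 of 13 higher and 2 lower (median 1.01). RRM2B, the ribonucleotide reductase subunit of resting cells, rose 6.89-fold, from 126, 134 and 128 to 886, 877 and 905 CPM, while its S-phase counterpart RRM2 fell 243-fold, from 217, 203 and 202 to 0.422, 1.23 and 0.823 CPM. The damage sensors of nucleotide excision repair DDB2 and XPC rose by 1.90 and 2.38, and POLH, which copies past ultraviolet lesions, by 2.09. PCNA, the sliding clamp of replication and also a p53 target, rose by 1.01 (SE 0.14), from 201, 292 and 273 to 516, 502 and 520.0 CPM, with no overlap.

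Metabolic targets of p53 counted 13 of 16 up and 1 down (median 2.37). GLS2, a glutaminase, went from 5.31, 5.2 and 5.27 to 132, 133 and 135 CPM. ACER2, a ceramidase, rose 33.1-fold, FDXR (ferredoxin reductase) 13.5-fold and C12orf5 (TIGAR), which lowers glycolytic flux, 7.26-fold. HMOX1, the haem oxygenase, rose 26-fold, from 8.27, 6.38 and 9.44 to 206, 212 and 208 CPM. LPIN1, a phosphatidate phosphatase, fell by 1.80. These 5 named rises had no overlap between the groups.

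Other protein-coding targets were higher in most cases: 55 of 60 rose, 1 fell (FOSL1, -0.76) and 4 did not pass, with a median of 2.16. CLCA2 (chromosome 1, 86889769 to 86922241), named for calcium-activated chloride channels, had 2 counts in the whole AG120 group and stood at 605, 598 and 635 CPM in AG120_Nutlin. For genes with 1 to 3 counts in a whole group, such as CLCA2, the ratio of summed counts over library sizes is given with its exact Poisson interval, which covers counting error only: here 19170 (95% interval 5306 to 158300). GDF15, a secreted stress factor, went from 72.1, 123 and 133 to 4783, 4988 and 4717 CPM, a 44.2-fold rise. PVRL4 (nectin-4) rose 202-fold, CEL, a lipase, 71-fold, FAM212B (INKA2), a kinase inhibitor, 12.9-fold and NDRG1, a stress protein, 5.62-fold. MR1, which presents microbial metabolites to T cells and whose promoter is printed above, stood at 44.3, 41.4 and 46.9 CPM in AG120 and 294, 290.4 and 296 CPM in AG120_Nutlin. BLNK, also printed above, had no counts in AG120 and stood at 28.4, 31.7 and 25.7 CPM in AG120_Nutlin. TLR3, a receptor for double-stranded RNA, rose by 3.13, NINJ1, a protein of membrane rupture, by 2.58, and the stem cell factor KITLG by 2.38. Of 9 measured noncoding RNAs tied to p53 6 rose and none fell, with LINC01021 at 5.62 and TP53TG1 at 3.41. MALAT1 and GAS5 were at 0.42 and 0.01 with overlapping groups.

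Some genes went from no reads to clear levels. In all, 17 called genes with at least 5 CPM after Nutlin had 0 counts in the 3 AG120 libraries together, and no gene went the other way. LCE1B, a late cornified envelope gene of skin, reached 69.8, 65.7 and 63 CPM and was at least 1381-fold higher than a floor of 3 counts in that group. LCE1C was at least 1316-fold, LCE1F at least 325-fold and LCE1E at least 297-fold higher. The LCE1 genes are close copies on chromosome 1, so reads may have been split among them. HHATL reached 34.1, 35 and 34.5 CPM (at least 721-fold), LCN15, a lipocalin, was at least 693-fold and UNC45B, a myosin chaperone of muscle, at least 406-fold higher. BLNK, an adaptor of B cell receptor signalling, was at least 601-fold and RGMA, a guidance molecule, at least 334-fold higher. HHATL-AS1 (at least 223-fold), an antisense transcript, overlaps HHATL at its higher coordinates (42744145 to 42744319), so the limit on antisense reads given above applies to both. POU3F1, a neural and keratinocyte transcription factor, and PYHIN1, an interferon-inducible protein, were at least 156-fold and at least 150.5-fold higher.

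**Figure D2:**
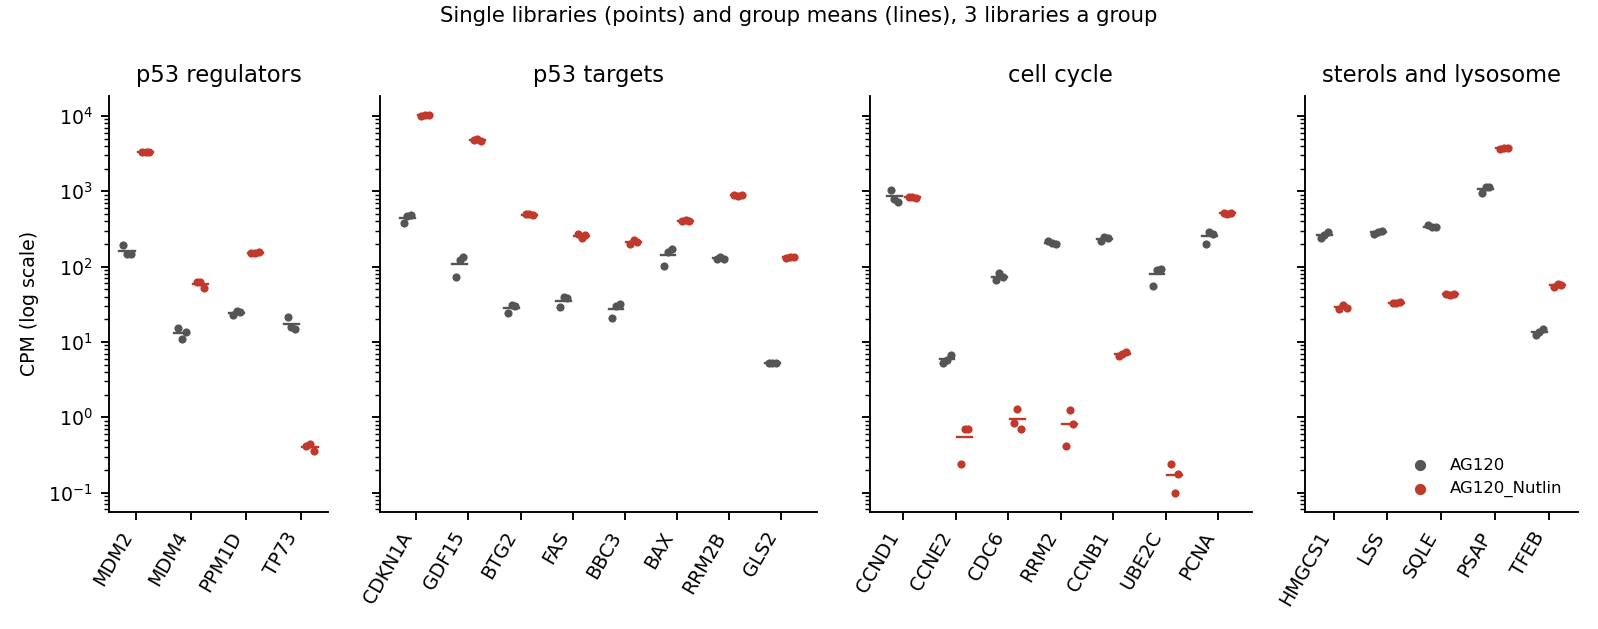
CPM of 24 genes in each of the 6 libraries, on a log axis, in 4 panels: regulators of p53 and a p53 relative, p53 targets, cell cycle genes, and sterol and lysosome genes. Each point is 1 library, AG120 or AG120_Nutlin. MDM2, CDKN1A and GDF15 sit far apart between the groups, CCND1 overlaps, and CDC6, RRM2, CCNB1 and UBE2C are lower in every AG120_Nutlin library.

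Cell cycle genes were mostly lower. Of 21 cyclins, CDKs and their regulators 18 fell and 2 rose (median -2.56). CCNB1, the cyclin that drives entry into mitosis, stood at 217, 247 and 238 CPM without Nutlin and 6.51, 6.95 and 7.41 CPM with it, a 33.6-fold fall. CDK1, its kinase, fell 78.1-fold and CCNA2, the cyclin of S phase and G2, 96.6-fold. Within the G1 cyclins the picture differed: CCNE2 fell 10.5-fold and CCNE1 2.96-fold, CCND3 rose by 0.48 (log2), and CCND1 stood at 1052, 793 and 722 CPM in AG120 and 828, 850.0 and 825 CPM in AG120_Nutlin, with overlapping groups. The phosphatases CDC25A and CDC25C, which release CDKs, fell 11.3-fold and 135-fold. Of 5 measured CDK inhibitors CDKN1A was the member that rose. CDKN2C (p18) fell by 1.53 and CDKN3, a phosphatase of dividing cells, fell by 4.88 (log2), while CDKN1B (p27) was at -0.02 with overlap.

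The E2F factors and the DREAM complex moved by subunit. The activator E2F1 stood at 77.6, 71.1 and 73.9 CPM in AG120 and 1.33, 1.33 and 2.23 CPM in AG120_Nutlin and fell 45.6-fold, and E2F2 fell 172-fold. The repressor E2F7 rose by 0.94, its relative E2F8 fell by 3.14, and E2F3 and E2F5 were at -0.02 and 0.08 with overlap. RBL2 (p130), the pocket protein of resting cells, rose by 1.22, from 64.9, 69.5 and 69.1 to 161, 156 and 158 CPM, and RB1 rose by 0.90. RBL1 (p107), the pocket protein of cycling cells, fell by 2.64. MYBL2 (B-MYB) and FOXM1, which replace DREAM to drive mitotic genes, fell 258-fold, from 222, 182 and 176 to 0.663, 0.592 and 1.00 CPM, and 79.7-fold. The list counted 13 of 20 lower and 4 higher.

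Replication genes fell together, 47 of 53 with 3 higher and a median of -2.26. The helicase subunits MCM2, MCM3, MCM4, MCM5, MCM6 and MCM7 fell, at -3.51, -2.69, -2.85, -3.10, -3.63 and -2.50 (log2). MCM6 stood at 154, 153 and 147 CPM in AG120 and 12.7, 10.8 and 13.1 CPM in AG120_Nutlin. CDC6 and CDT1, which load the helicase, fell 75.9-fold and 18.5-fold, and CDC45, which activates it, 37.1-fold. MCM10 fell 249-fold by the fitted value, from 54.1, 54 and 48.4 to 0.0603, 0.296 and 0.235 CPM. Its AG120_Nutlin values rested on 11 counts in all. The members that rose were PCNA, LIG1 (0.40), the ligase that joins Okazaki fragments, and GMNN (0.77), the inhibitor of CDT1. Nucleotide synthesis counted 24 of 27 lower and none higher: TK1 (thymidine kinase) fell 140.0-fold and the purine enzyme PAICS 4.07-fold, while TYMS (thymidylate synthase) was at 0.15 with overlap. Without AG120 replicate 3 TYMS was called higher (0.37, adjusted p = 0.0462).

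DNA repair genes of replicating cells fell as well. In homologous recombination and the Fanconi pathway 29 of 34 fell (median -2.71). BRCA1 went from 108, 91 and 90.0 to 5.67, 5.18 and 5.06 CPM. EXO1, an end-resecting nuclease, fell 99.9-fold and FANCD2 14.2-fold. RAD51C was the member that rose, by 1.43. Mismatch, excision and end-joining repair counted 15 of 30 lower and 5 higher (median -0.35). MSH6 fell by 2.18, UNG fell by 1.88 and PRKDC fell by 1.70, and LIG4, which seals broken ends, rose by 0.98.

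Mitotic genes showed the deepest medians of the 62 lists. All 12 mitotic kinesins fell, with a median of -6.55: KIF11, which pushes spindle poles apart, stood at 215, 189 and 179 CPM without Nutlin and 4.64, 5.18 and 4.23 CPM with it, KIF20A fell 29.7-fold, and KIF4A, KIF18B and KIF14 fell 241-fold, 243-fold and 203-fold. The AG120_Nutlin value of KIF18B rested on 11 counts in all. Kinesins that carry cargo outside mitosis counted 4 of 16 higher and 4 lower. Among mitotic kinases and the anaphase-promoting machinery 23 of 24 fell (median -5.03). UBE2C, the ubiquitin-conjugating enzyme of that machinery, fell 458-fold by the fitted value, from 54.5, 91.3 and 92.8 to 0.241, 0.0986 and 0.176 CPM, the last resting on 9 counts in all. AURKA fell 25.5-fold, PLK1 63.8-fold, NEK2 264-fold and HMMR 169.5-fold. The AG120_Nutlin value of NEK2 rested on 13 counts in all. FZR1, the activator of the same machinery in G1, was at 0.02 with overlapping groups.

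Kinetochore and spindle checkpoint genes counted 37 of 41 lower (median -4.07). SPC25, a subunit of the NDC80 complex, fell from 1077 counts in the whole AG120 group to 2 in AG120_Nutlin, a ratio of 463 (95% interval 128 to 3827). BUB1B, a checkpoint kinase relative, fell 52.3-fold and CENPA, the centromeric histone, 136-fold. SKA1, which couples kinetochores to microtubules, fell 225-fold by the fitted value, with 4 counts in the whole AG120_Nutlin group. MAD1L1 was the member that rose (1.10), and MIS12 and CENPP were at 0.10 and 0.00 with overlap. Of 23 condensin, cohesin and topoisomerase II genes 19 fell. TOP2A went from 647, 720.1 and 669 to 9.83, 9.57 and 10.5 CPM, and the condensin subunit NCAPG and the cohesin acetyltransferase ESCO2 fell 159.6-fold and 277-fold. The AG120_Nutlin value of ESCO2 rested on 7 counts in all. TOP2B, the topoisomerase of resting cells, fell by 0.88 (log2), and MAU2, a cohesin loader, rose by 1.00. In cytokinesis 11 of 12 fell (median -5.58): ANLN went from 488, 430.1 and 397 to 2.77, 3.35 and 2.94 CPM, and PRC1, which bundles the central spindle, fell 33.6-fold. ASPM, a spindle pole protein named among the largest falls, fell 342-fold.

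**Figure D3:**
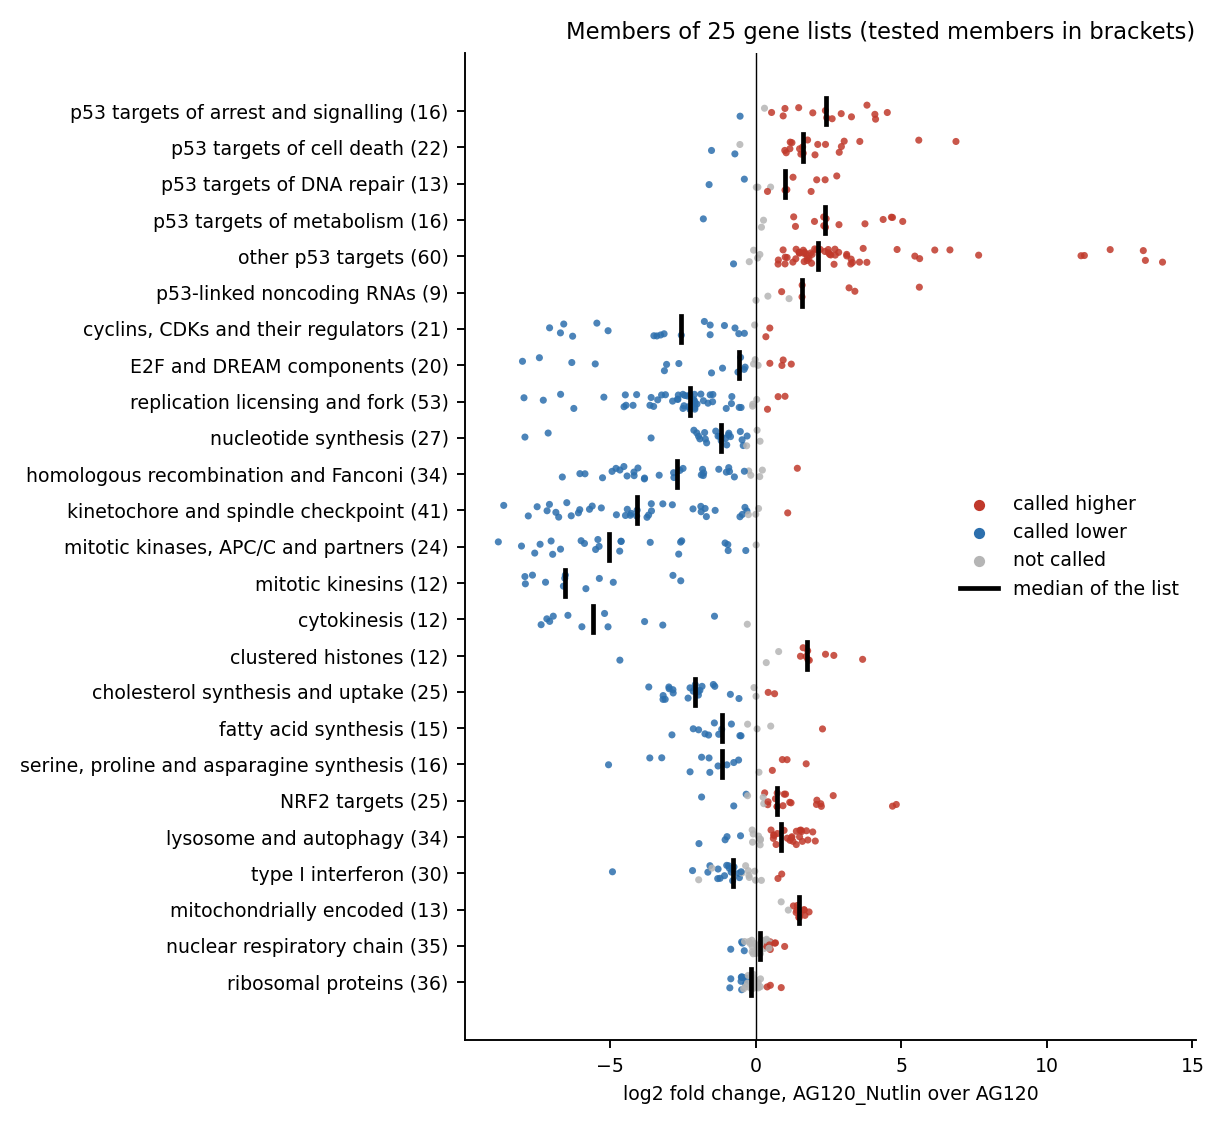
Log2 fold changes (x axis) of the tested members of 25 gene lists, 1 row per list. Each point is 1 gene and the bar marks the list's median. The lists of p53 targets lie to the right of 0, the mitotic, replication and recombination lists to the left, and ribosomal proteins and nuclear respiratory chain genes close to 0.

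The elements printed above were counted in the promoters of these lists, from 250 bases before to 50 after each gene start. A CHR element was found in 65.3% of 75 mitotic promoters (of 89 genes in the 4 lists of kinetochore genes, mitotic kinases, mitotic kinesins and cytokinesis genes), in 4.44% of 45 replication promoters (of 53 genes), in 15.5% of 10597 promoters of tested coding genes and in 24.3% of all 27305 promoters of the RefSeq table. An E2F element was found in 8% of the mitotic and 40% of the replication promoters, against 5.23% of tested genes and 3.33% of the whole table. CCAAT boxes were in 70.7% and 55.6%, against 36.2% and 35.7%. A CCAAT box followed 25 to 45 bases on by a CHR element was in 22.7% of mitotic and in none of the replication promoters, against 0.821% of tested genes. Among genes that fell at least 32-fold 59.6% of 104 promoters held a CHR element, against 14.9% of genes that were not called. Promoters were matched for 80.6% of the former. A stretch like the p53 response element was in 0.245% of promoters of tested coding genes and 0.381% of the whole table. For the p53 target lists 79.5% of genes were matched, just under the minimum of 80% set for such a comparison, so none is made for them.

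**Figure D4:**
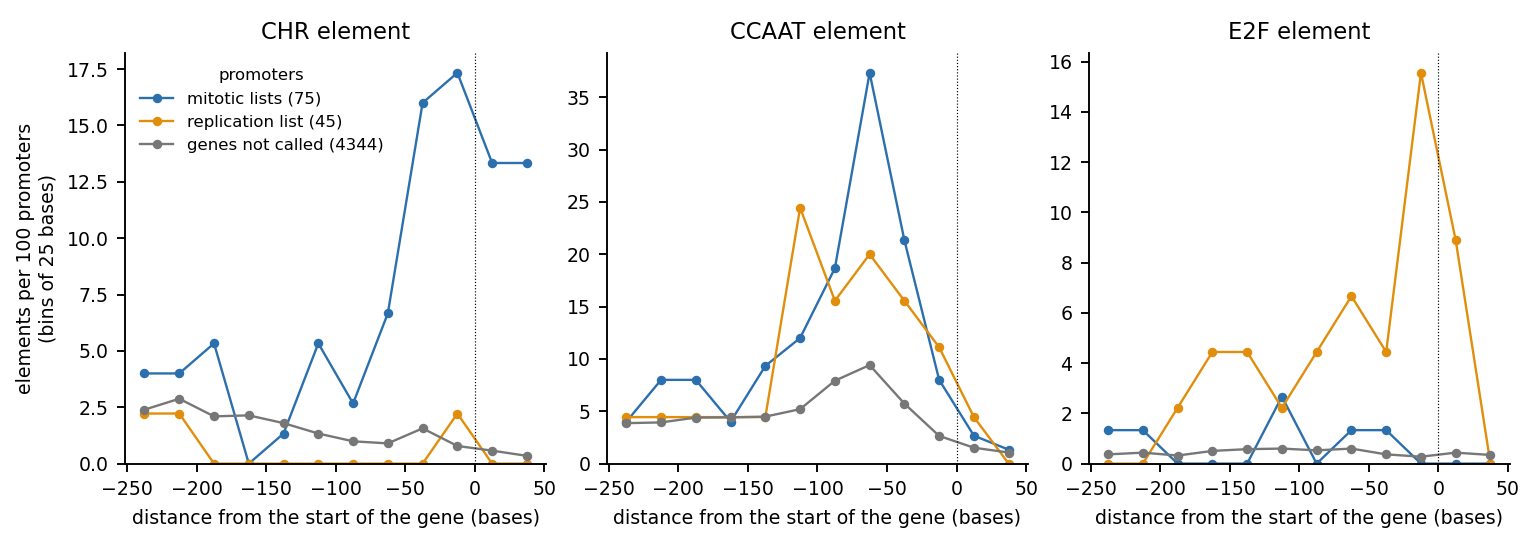
Elements per 100 promoters in bins of 25 bases, by distance from the gene start in bases, for CHR, CCAAT and E2F elements in 3 panels. Lines are the mitotic lists (75 promoters), the replication list (45) and genes not called (4344). CHR elements of mitotic genes lie mostly within 50 bases of the start, E2F elements of replication genes are most frequent just before it, and genes not called hold fewer CHR elements near the start than the mitotic genes.

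Chromatin genes of proliferating cells were lower. LMNB1 (lamin B1), whose loss is a known mark of senescent cells, stood at 154, 203 and 196 CPM in AG120 and 9.28, 9.52 and 9.47 CPM in AG120_Nutlin and fell 19.6-fold, while LMNA rose by 0.46 (log2). HMGB2, a chromatin protein, fell 12.6-fold, UHRF1, which brings DNMT1 to replicated DNA, 37.7-fold, DNMT1 4.64-fold and EZH2 3.52-fold. In this list 16 of 23 fell and 4 rose. Clustered histone genes counted 9 of 12 higher and 1 lower (median 1.76): HIST1H2BJ rose by 3.67, HIST1H2AC went from 15.8, 18.2 and 19.7 to 91.1, 94.4 and 96.8 CPM, and HIST2H2AC fell from 102 to 3 counts in all, a ratio of 29.2 (95% interval 9.72 to 144). Most of these mRNAs lack a poly(A) tail, and untailed RNAs varied between the libraries as given above, so whether their carry-over contributed was not tested. Of 10 variant histone genes 4 fell and 2 rose, with H2AFX at -3.53 and H2AFZ at -2.06.

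Genes of cholesterol synthesis and uptake were lower for 21 of 25 members and higher for 2, with a median of -2.08. HMGCS1, which makes HMG-CoA, stood at 241, 265 and 285 CPM in AG120 and 27.4, 31.2 and 28.5 CPM in AG120_Nutlin, a fall of 9.08-fold. SQLE (squalene epoxidase) fell 7.9-fold and LSS (lanosterol synthase) 8.63-fold, from 274, 291 and 297 to 33, 33.3 and 33.5 CPM. Each was lower in all 3 Nutlin libraries. SREBF2, the transcription factor that drives this pathway, was at -0.06 with overlapping groups. The members that rose were PMVK (0.65) and TM7SF2 (0.43), the latter no longer called without AG120 replicate 2 (adjusted p = 0.0526) or without AG120_Nutlin replicate 3 (adjusted p = 0.0563). Fatty acid synthesis counted 11 of 15 lower, with the desaturase SCD at -2.88, ELOVL6 at -2.14 and FASN at -1.74 (from 2078 ± 297 to 621 ± 25.6 CPM). MLXIPL (ChREBP), a sugar-sensing activator of lipid synthesis, rose by 2.29, and SREBF1 was at 0.05 with overlap.

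Of 16 genes of serine, proline and asparagine synthesis 11 fell and 4 rose (median -1.14). PHGDH, the first enzyme of serine synthesis, went from 145, 126 and 126 to 3.86, 3.4 and 4.7 CPM, a 33.2-fold fall, while PSPH, the last, rose by 0.92. BCAT1, which moves amino groups of branched-chain amino acids onto 2-oxoglutarate, fell 9.37-fold (from 60.9 ± 10.6 to 6.51 ± 0.732 CPM). The amino acid transporter SLC7A5 fell 12.4-fold, and SLC3A2, its partner chain, rose by 1.08 (log2). ATF4, the transcription factor of this programme, rose by 0.57, DDIT3 (CHOP) by 1.73, and their target ASNS fell by 1.60.

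Glycolysis and hypoxia genes counted 15 of 25 lower and 6 higher. LDHA went from 1546, 1359.9 and 1268 to 283, 264 and 294 CPM, ENO1 from 3234, 2575 and 2453 to 915, 897 and 955 CPM, and the hypoxia marker CA9, a carbonic anhydrase, fell by 4.71. NDRG1, ENO2 (1.31) and PFKL (0.74) rose, and PKM was at 0.15 with overlap. Among 15 genes of IDH and 2-HG metabolism 4 rose and 6 fell. D2HGDH, which removes the D form of 2-HG, rose by 1.10. ADHFE1, a transhydrogenase that can make 2-HG, rose by 2.27. IDH2 was at 0.17 and did not pass. GLUD1 and GLUD2, which fell, at -0.92 and -1.01, are near-identical copies and their reads may have been split.

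NRF2 targets, which defend against oxidative stress, counted 19 of 25 higher and 3 lower (median 0.74). The aldo-keto reductase AKR1C1 went from 6.21, 7.07 and 5.96 to 189, 179.8 and 178 CPM. Its close copies AKR1C2 and AKR1C3 rose by 2.66 and 2.23, and AKR1B10 by 2.25. GCLC and GCLM, which make glutathione, rose by 0.94 and 0.68, and SLC7A11, the cystine importer, fell by 1.86. FTH1 (ferritin heavy chain, a gene with many pseudogenes) rose by 2.09.

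Lysosome and autophagy genes counted 23 of 34 higher and 4 lower (median 0.86). PSAP, the precursor of the saposins, went from 941, 1142 and 1150.3 to 3684, 3746 and 3754 CPM, among the largest rises by CPM. CTSD, an aspartic protease, rose 3.35-fold and LAMP1, a membrane protein, 2.84-fold. TFEB, a transcription factor of lysosomal genes, rose 4.13-fold, from 12.4, 13.7 and 14.9 to 53.9, 58.5 and 56.8 CPM, and its relative TFE3 was at 0.16 and did not pass. SQSTM1 (p62), an autophagy receptor, rose 2.94-fold. ULK1 rose by 1.28 and ULK2, its relative, fell by 1.95, and the protease CTSZ fell by 0.98.

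Mitochondrially encoded genes rose in 11 of 13 cases (median 1.48). Their share of all counts was between 1.32% and 1.74% in AG120 libraries and between 4.11% and 4.42% in AG120_Nutlin libraries. MT-CO1, a subunit of cytochrome oxidase, stood at 4021, 3352 and 3055 CPM in AG120 and 11561, 11072 and 11058 CPM in AG120_Nutlin. Nuclear genome copies of mitochondrial sequence may take some of these reads. Nuclear genes of the respiratory chain counted 7 of 35 higher and 4 lower (median 0.16). The number higher was 3 without AG120 replicate 1, 12 without AG120 replicate 3, 3 without AG120_Nutlin replicate 1, and 4 without AG120_Nutlin replicate 2 or replicate 3, and it was 4 when libraries were scaled by their totals. SDHA rose by 0.68 and ATP5G1 fell by 0.86.

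Genes of ribosome biogenesis were mostly lower, while most ribosomal protein genes were not called. Ribosome biogenesis counted 18 of 30 lower and 2 higher (median -0.46): FBL, a methyltransferase of the nucleolus, fell 2.56-fold, NCL (nucleolin) 2.55-fold and DKC1 2.28-fold. MYC, which drives these genes, went from 127, 191 and 185 to 42.5, 38.5 and 41.5 CPM, a 4.11-fold fall. Its antagonists MXI1 and MXD1 rose by 0.96 and 1.06 (log2), and MXD3, the member of that family found in dividing cells, fell by 3.67. Ribosomal protein genes, which have many pseudogene copies, counted 9 of 36 lower and 3 higher (median -0.16). The number lower was 4 without AG120 replicate 3 and 5 without AG120_Nutlin replicate 3. RPS2 and RPSA fell, at -0.86 and -0.89, and RPS19 rose by 0.88.

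The 8 largest falls in CPM were FLNA, ACTG1, ACTB, ENO1, GAPDH, FASN, MYH9 and TGFBI, genes of the cytoskeleton, metabolism and matrix. FLNA (filamin A) went from 9526, 7159 and 6750.3 to 2494, 2593 and 2557 CPM, ACTG1 from 5393, 5348 and 5207 to 840.3, 804 and 845 CPM and MYH9, the non-muscle myosin, from 2881, 2045 and 1922 to 899, 947 and 915 CPM. ACTB, often used as a reference gene, fell by 1.35 (log2) and GAPDH fell by 0.68, and neither changed sign when libraries were scaled by their totals or by DESeq2 size factors. The call for MYH9 ended without AG120 replicate 1 or any 1 of the AG120_Nutlin libraries (adjusted p from 0.0614 to 0.0877). TGFBI, a matrix protein, fell by 1.17. Of 16 genes commonly used as references 7 fell and 2 rose. The largest rises by CPM were CDKN1A, MT-CO1, MT-RNR2, GDF15, MDM2, MT-CO3, PSAP and MT-ND4.

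Targets of YAP and TGF-beta counted 13 of 23 lower and 7 higher. CYR61, a matricellular YAP target, stood at 266, 376 and 367 CPM in AG120 and 39.5, 36.1 and 34.5 CPM in AG120_Nutlin, and THBS1 (thrombospondin 1) at 1407, 1015 and 969 CPM in AG120 and 118, 113 and 127 CPM in AG120_Nutlin. The groups did not overlap for either. CTGF fell by 1.61, ANKRD1 fell by 2.36, AMOTL2 fell by 1.80, TEAD4, a partner of YAP, fell by 2.74 and the ligand TGFB2 fell by 2.48. YAP1 itself rose by 0.33. The inhibitors of differentiation ID1, ID2 and ID3, targets of BMP signalling, rose by 2.25, 1.79 and 2.49, and BHLHE40 by 2.66.

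Matrix and junction genes changed in both directions. In collagens and basement membrane 18 of 39 fell and 8 rose. COL12A1 fell 29.6-fold and COL1A1 18.3-fold, and the crosslinking enzymes LOX, LOXL1, LOXL2 and LOXL4 fell, at -2.16, -1.67, -2.46 and -3.34 (log2). COL17A1, a hemidesmosomal collagen, rose 24.9-fold, from 19.2, 18.5 and 16.5 to 430.5, 472 and 445 CPM, COL4A5 10.8-fold and LAMA1 32.1-fold. Junction genes counted 14 of 29 lower and 7 higher: E-cadherin CDH1 went from 140.3, 137 and 134 to 32.4, 28 and 32.1 CPM and N-cadherin CDH2 from 220.0, 231 and 216 to 68.8, 68.2 and 68.3 CPM. CLDN1 and CLDN3 fell, at -1.76 and -2.52 while CLDN4 rose by 1.56 and MARVELD2 (tricellulin) by 2.39. Among keratins KRT80 fell 7.58-fold and KRT18 2.24-fold, and KRT8 was at -0.30 and did not pass. Of 18 integrins ITGB2 fell by 3.30, ITGAV fell by 0.94, ITGA2 rose by 1.47 and ITGA4 by 1.76. In all 9 integrins fell and 5 rose.

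Secreted factors linked to senescent cells did not share a direction, 10 of 27 higher and 7 lower. IL11 fell by 3.38, IL18 fell by 2.55, CCL2 fell by 2.03 and INHBA (activin A) fell by 2.39 on the log2 scale. GDF15, IL1B (3.58), MMP14 (2.19) and CSF1 (1.94) rose. The chemokine CXCL1 was at -0.07 with overlapping groups. In the EGFR family 6 of 11 fell, EGFR fell by 1.30, ERBB2 fell by 0.90, ERBB3 fell by 1.66 and the ligands NRG1 and EREG fell, at -1.64 and -1.87, and the ligand AREG rose by 1.24. In the IGF axis IGFBP1 and IGFBP3, which bind IGFs, fell, at -4.33 and -2.40, IGF2 fell by 5.40, and IGF2R, which clears IGF2, rose by 1.01. Feedback genes of the MAPK pathway counted 10 of 22 higher and 4 lower, with SPRY1 at 2.30, DUSP5 at 1.51 and DUSP6 at 0.53, and EGR1 at -1.34.

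Interferon-stimulated genes counted 18 of 30 lower and 2 higher (median -0.79). OAS3, an RNA sensor, went from 83, 62 and 59.3 to 1.87, 2.22 and 2.65 CPM. BST2 (tetherin) fell by 2.17, IFIT1 fell by 1.07 and the RNA sensor DDX58 (RIG-I) fell by 0.75, whereas STAT2 rose by 0.89. ISG15, a ubiquitin-like modifier, rose by 0.76. Antigen presentation counted 10 of 22 lower and 2 higher. TAP1, the peptide transporter subunit that p53 induces, went from 53.6, 50.3 and 51 to 233, 245 and 242 CPM, while its partner TAP2 fell by 1.55. CD74 (invariant chain) fell by 2.36, PSMB9, an immunoproteasome subunit, fell by 1.82, and HLA-C and HLA-E were at -0.07 and -0.05 with overlap. Complement and coagulation counted 6 of 21 higher and 9 lower: F5 (factor V) rose 18.9-fold and CD55 2.41-fold, and C3 fell by 0.96 (log2). C4A and C4B, near-identical copies whose reads may have been split, both rose, C4A by 3.46 and C4B from 3 to 91 counts in all, a ratio of 35.3 (95% interval 11.7 to 174).

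A last comparison asked where this response differed from the response to Nutlin in cells kept in vehicle. In vehicle cells 4206 genes were higher (26.8%) and 4258 lower (27.1%). The difference between the responses, tested as the interaction term, was called for 57 of 15691 genes (0.363%): it was more positive in AG-120 cells for 5 (0.0319%) and more negative for 52 (0.331%), and 1730 had an unadjusted p of at most 0.05. None of the lists of p53 targets, replication, recombination or kinetochore genes held more than 1 such gene. The lists that did were YAP and TGF-beta targets (7 of 23), serine, proline and asparagine synthesis (3 of 16) and collagens and basement membrane (3 of 39). So did cytokinesis (2 of 12) and keratins and cornified envelope (2 of 18).

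The 5 genes whose response was more positive with AG-120 were LAMA4, GAS2L3, HMOX1, IGFBP4 and SLC6A6. LAMA4, a laminin chain, stood at 10.7 CPM in AG120 against 2.72 in AG120_Nutlin, and 7.77 CPM in vehicle against 0.487 in vehicle_Nutlin, a difference of 1.98 in log2 response (SE 0.37, adjusted p = 0.0446). GAS2L3, a cytoskeletal linker of dividing cells, stood at 37.3 CPM in AG120 against 14 in AG120_Nutlin, and 41.3 CPM in vehicle against 6.04 in vehicle_Nutlin (difference 1.36, adjusted p = 0.00916). Both fell under Nutlin in each setting, and fell less with AG-120. HMOX1 stood at 8.03 CPM in AG120 against 208 in AG120_Nutlin, and 9.71 CPM in vehicle against 129 in vehicle_Nutlin (difference 0.96, adjusted p = 0.0448). IGFBP4, a binding protein of IGFs, and SLC6A6, the taurine transporter, had differences of 0.92 and 0.87. Of the more negative genes, MUC5AC, a gel-forming mucin of the stomach and airway, stood at 8.35 CPM in AG120 against 0.658 in AG120_Nutlin, and 0.603 CPM in vehicle against 0.595 in vehicle_Nutlin (difference -3.67, SE 0.52, adjusted p = 0.00707), so it was high in 1 of the 4 groups. BAAT, which conjugates bile acids to amino acids, stood at 15.2 CPM in AG120 against 8.15 in AG120_Nutlin, and 4.93 CPM in vehicle against 11.9 in vehicle_Nutlin (difference -2.18, adjusted p = 0.00321): it fell with AG-120 and rose without. SLC16A12, a transporter, ANKRD2, a muscle ankyrin repeat protein, and AOX1, an aldehyde oxidase, had differences of -2.11, -2.05 and -1.90. Among YAP and TGF-beta targets 7 of 23 had a called difference, each more negative with AG-120. Of these, CTGF, ANKRD1 and TGFB2 were called under all 21 alternatives tried, CYR61 under 15, THBS1 under 13, and AMOTL2 and AJUBA under 10. CTGF stood at 95.4 CPM in AG120 against 31.2 in AG120_Nutlin, and 81 CPM in vehicle against 95 in vehicle_Nutlin (difference -1.85, adjusted p = 0.00146).

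**Figure D5:**
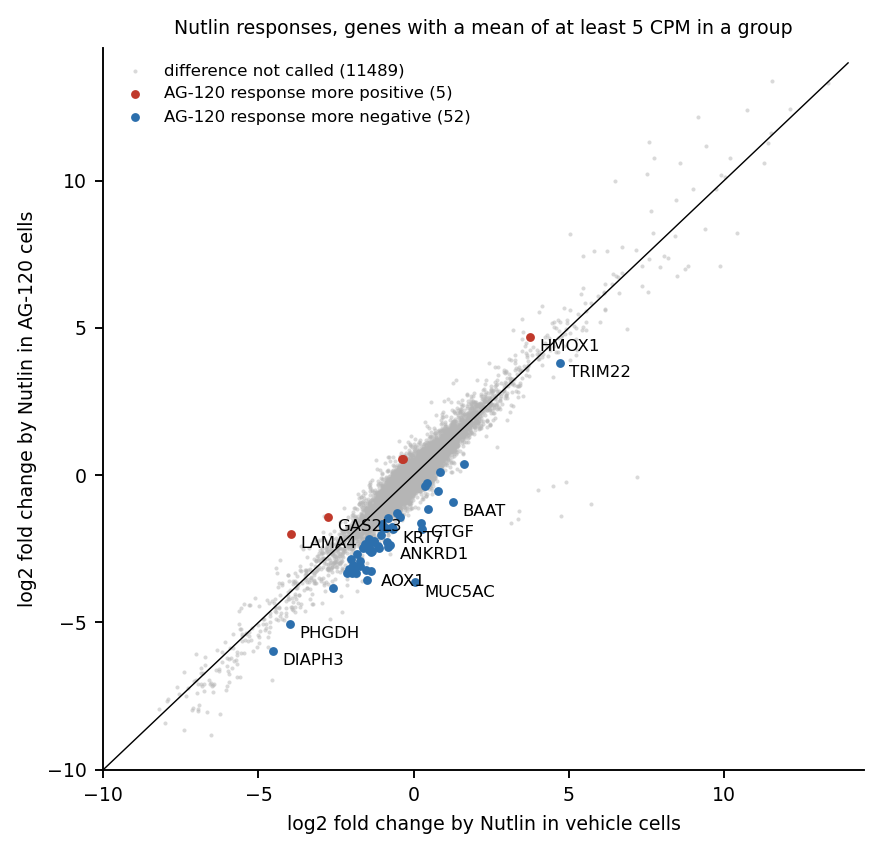
Log2 response to Nutlin in AG-120 cells (y axis) against that in vehicle cells (x axis) for 11546 genes with at least 5 CPM in a group. The 57 genes with a called difference are coloured (5 red, more positive with AG-120, and 52 blue, more negative). Most points follow the diagonal, and the vehicle_Nutlin libraries, which set the x axis, had the widest spread.

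The number of called differences depended on single libraries. The counts of more positive and more negative genes were 36 and 207 without vehicle_Nutlin replicate 3 and 34 and 76 without vehicle_Nutlin replicate 1. They were 3 and 51 without vehicle_Nutlin replicate 2, 1 and 33 without AG120 replicate 2, and 3 and 30 without AG120 replicate 3. Without any 1 of the AG120_Nutlin or vehicle libraries, 1 more positive gene and between 22 and 28 more negative ones were called. The median SD per gene was 0.29 (log2) in vehicle_Nutlin, against 0.0924 in AG120_Nutlin and 0.102 in vehicle. The untailed RNA RN7SK was at 163.5 CPM in vehicle_Nutlin replicate 2 and at 1.69 and 1.15 CPM in replicates 1 and 3. The part of these differences in the result was not tested. ANKRD1, ANKRD2, AOX1, BAAT, BCAT1, CLDN1, CTGF, GAS2L3, KRT7, KRT80, LOXL4, MUC5AC and TGFB2 were called in the same direction under all 21 alternatives. The call for HMOX1 ended without any 1 library other than AG120 replicate 3 or vehicle_Nutlin replicate 3 (highest adjusted p 0.159). That for LAMA4 ended without any 1 library other than vehicle_Nutlin replicates 1 and 3 (highest 0.144), and that for SLC16A12 without any 1 library other than vehicle replicate 1 or those of vehicle_Nutlin (highest 0.104). HMOX1 and LAMA4 were each called in 9 of the 21 alternatives and SLC16A12 in 12, so alternatives other than leaving out 1 library also ended these calls. Those for IGFBP4 and SLC6A6 ended without any 1 library other than AG120 replicate 1 or those of vehicle_Nutlin (highest 0.0753 and 0.109), and that for IGFBP4 also with the replicate number as a block. Those for AJUBA and AMOTL2 ended without any 1 AG120_Nutlin or vehicle library and without AG120 replicates 2 or 3, as well as with library totals and with the block (highest 0.141 and 0.136). AMOTL2 and THBS1 also lost theirs without vehicle_Nutlin replicate 2. The call for THBS1 ended without any 1 AG120_Nutlin or vehicle library and without AG120 replicate 2 (highest 0.121), and that for CYR61 without any 1 vehicle library, AG120 replicate 3 or AG120_Nutlin replicates 2 or 3 (highest 0.0757). AJUBA was also not called with no filter.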

How the data were processed

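The table that the authors deposited gives counts of reads for each gene symbol, as whole numbers without normalization that sum to a different total in each library. Per the submitters' processing notes, Partek, STAR, HTSeq and DESeq2 were used with the genome build hg19. Their versions, their roles and the use of strand are not given in the sources used here. Per the labels, poly(A) RNA was read as paired 150-base reads.

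Counts of all 12 libraries were fitted in R 4.3.3 with edgeR 4.0.16 (glmQLFit, a term per group). Low genes were removed by filterByExpr with the 4 groups, and TMM factors (trimmed mean of M values) scaled the libraries. glmQLFTest gave the response (AG120_Nutlin minus AG120) and the difference from the response in vehicle cells. Adjustment was by Benjamini-Hochberg over all 15691 tested genes, with calls at 0.05. Levels are TMM-scaled CPM, the counts divided by the scaled library total. A floor of 3 counts over a group stands for 0. The file also holds 28 symbols that a spreadsheet turned into dates, and none is named. Alternatives were DESeq2 1.42.0, limma 3.58.1 (voom), other scalings and filters, the replicate number as a block, the 2 compared groups alone and each library left out. Added after seeing the data were transcript length offsets and a fit without AG120 replicate 1 and vehicle_Nutlin replicates 2 and 3.

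The comparison, the 62 gene lists and the alternatives were chosen with earlier results of these data known. The named genes are MDM2, CDKN1A and IDH1, the 12 largest log2 fold changes each way among called genes with at least 5 CPM and no overlap, the 8 largest rises and falls in CPM, up to 5 members of each list by smallest adjusted p, members against the majority of their list, members of lists of up to 25 genes where their role calls for it, and the 5 largest differences each way. Some genes under this rule are not reported here. Other genes named, mostly members of longer lists, were chosen after their values were seen. Lists are described by counts and medians, with no test of a list. On simulated data the test recovered 68.7% of 67 genes changed 2-fold, 97% of 67 changed 4-fold and 98.5% of 66 changed 8-fold, among 15340 genes. It called 0.0594% of 15140 unchanged ones. Far fewer genes changed there than were called in the real data (55.7% of tested genes), and no group was given a wider spread. These shares therefore do not give the rate of false or missed calls in the real data. The libraries carry no molecular identifiers, so the floor covers counting error only. No 2 libraries of the same group held the same counts within sampling noise.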

Additional observations from a re-analysis of the deposited data

Results flagged for a closer look

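The response to Nutlin differed between AG-120 and vehicle cells, by the test of the difference itself, for 57 of 15691 genes (0.363%). Reported here are 31 of them that are in a gene list or fall under the naming rule, given by the log2 response in AG-120 cells minus that in vehicle cells (edgeR quasi-likelihood test, adjusted p at most 0.05, 3 libraries per group). No other kind of result met a rule for a closer look, and groups of 3 libraries are too small for a test of single outlying samples.

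The genes are grouped by hand for reading only. For genes of the matrix, the cytoskeleton and YAP signalling the differences were -1.36 for LOXL4, -0.82 for LOXL2, -1.33 for THBS1, -1.10 for CYR61, -1.85 for CTGF, -1.61 for ANKRD1, -2.05 for ANKRD2, -0.92 for AMOTL2, -0.64 for AJUBA and -1.43 for DIAPH3. They were 1.98 for LAMA4 and 1.36 for GAS2L3. CTGF fell by 1.61 (log2) in AG-120 cells and was at 0.23 in vehicle cells, and ANKRD1 fell by 2.36 and was at -0.75.

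For ligands, receptors and a binding protein they were -1.36 for TGFB2, -1.23 for PDGFRB, -0.96 for EFNB2, -0.72 for FZD2 and 0.92 for IGFBP4. IGFBP4 was at 0.55 in AG-120 cells and at -0.37 in vehicle cells. Epithelial genes were KRT7 (-1.18), KRT80 (-1.19), CLDN1 (-1.07) and MUC5AC (-3.67). KRT7 went from 1719 to 482 CPM with Nutlin in AG-120 cells and from 1509.6 to 957 CPM in vehicle cells.

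Metabolic and transport genes were AOX1 (-1.90), BAAT (-2.18), BCAT1 (-1.68), PHGDH (-1.08), PYCR1 (-0.99), DHCR7 (-0.81), SLC16A12 (-2.11), HMOX1 (0.96) and SLC6A6 (0.87). PHGDH, BCAT1 and PYCR1 belong to amino acid synthesis and fell in both settings. The last was TRIM22 (-0.89), a p53 target that rose by 3.82 in AG-120 and by 4.71 in vehicle cells. Of these 31 genes, 13 were called in the same direction in each of 21 alternatives, and the other 18 in 8 to 20 of them.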

How the results depend on the processing

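The numbers of genes called higher and lower stayed within 1.5 times of 4234 and 4513 under every alternative run, from 3735 to 5690 higher and from 3868 to 5779 lower. No gene was called in opposite directions, and 46.1% to 49.6% of calls were higher. Scaling by library totals moved the median log2 fold change to -0.03. The largest counts came from limma voom (5690 and 5779) and from leaving out the 3 libraries that stood apart (5442 and 5744), the latter with 1 vehicle_Nutlin library, assumed to vary like the others. Called differences between the responses, 5 more positive and 52 more negative, moved most: 26 and 197 with DESeq2, 80 and 203 with no filter, 75 and 358 with voom, 9 and 91 with length offsets, 185 and 452 without those 3 libraries, and 1 to 36 and 22 to 207 when each library was left out. Deviations from the group mean had correlations of -0.079, -0.046 and -0.152 between AG120 and AG120_Nutlin libraries of the same replicate number. The AG120 deviations also followed transcript length, so these values cannot exclude that replicates were paired. With the replicate number as a block 4174 and 4355 genes were called, with 2 and 30 differences. Nuclear respiratory chain genes higher, 7, became 4 with library totals, 11 with no filter, 15 with voom, 11 without the 3 libraries and 3 to 12 with each library left out. Transport kinesins higher, 4, became 9 with voom, 7 with the 2 groups alone and 9 without the 3 libraries. Antigen presentation genes lower, 10, became 16 with voom and 16 without the 3 libraries. Ribosomal proteins lower, 9, became 24 with voom, 17 with the 2 groups alone, 24 without the 3 libraries and 4 to 12 with each library left out. Reference genes lower, 7, became 11 with voom, with the 2 groups alone and without the 3 libraries, and CDK inhibitors lower, 2, became 4 without the 3. The cause of these changes was not tested. Of 19598 pairs of a gene and an alternative 18674 kept direction and call, 365 lost a call, 556 gained one and 3 turned sign, none of them called in the fit reported: CCND1 (0.13), GAS5 (-0.25) and HSD17B7 (-0.17), each without the 3 libraries. Depth limits genes near the floor, about 0.05 CPM per group.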

Other observations

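Genes of axon and cell guidance, which also steer epithelial and vascular cells, changed in both directions: 21 of 53 rose and 16 fell, 16 and 12 of them at least 2-fold. DRAXIN, a secreted guidance protein, stood at 0.0857, 0.196 and 0.105 CPM in AG120 and 200.2, 225 and 202 CPM in AG120_Nutlin. NTN1 (netrin 1) went from 0.129, 0.54 and 0.369 to 28, 29.3 and 27.3 CPM, and its dependence receptor UNC5B, a known p53 target, rose 15-fold. Both were higher in every Nutlin library. The ephrin EFNB1 rose 13.4-fold while EFNB2 fell by 1.41 (log2). Semaphorins split, with SEMA3F up by 4.10 and SEMA3B by 1.69, and SEMA7A, SEMA3C and SEMA3A down, at -3.40, -1.71 and -2.19. The plexin receptors PLXNA2 and PLXNB1 rose by 2.73 and 1.86.

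In the Notch pathway 9 of 20 rose and 4 fell. NOTCH3 went from 0.386, 0.344 and 0.211 to 9.04, 10.8 and 10.4 CPM, the ligand JAG1 rose 3.35-fold and the target HES1 2.25-fold, while NOTCH2 was at -0.01 with overlapping groups. WNT genes counted 12 of 28 lower and 7 higher: the ligands WNT5A and WNT5B fell, at -2.19 and -2.96, the inhibitor DKK1 fell by 3.87 and the target AXIN2 fell by 1.41, and WNT4 and WNT9A rose by 3.07 and 2.88. Of 21 ABC transporters 12 rose and 2 fell. ABCA1 and ABCG1, which export cholesterol, rose 6.47-fold and 16.1-fold, from 48.8, 50.3 and 42.4 to 298, 303 and 315 CPM for ABCA1, and ABCB1, the multidrug exporter, fell by 1.63. Of 29 dioxygenases that use 2-oxoglutarate 12 rose and 5 fell, with the histone demethylases KDM6B and KDM4B at 1.71 and 1.52 and the collagen hydroxylases PLOD2 and P4HA1 at -1.64 and -1.26.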
